A study of Mus musculus with 10 samples.

Results

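The chemokine genes that lining epithelia are known to express were followed by name in esophageal epithelium of Mst1/2 knockout and wild-type mice. They are the 10 genes Cxcl1, Cxcl5, Cxcl12, Cxcl14, Cxcl15, Cxcl16, Cxcl17, Ccl20, Ccl27a and Cx3cl1, taken by gene symbol from a table of 56691 genes. All 10 were found, each in 1 row. Knockout mice carried p63CreERT2, a tamoxifen-inducible Cre recombinase named for the basal-cell transcription factor p63, together with Mst1loxp/loxp and Mst2-/-. Their partners were wild type (WT). The Mst2 allele is not limited to a cell type, whereas Mst1 was open to deletion where the Cre is made. Both groups had received tamoxifen, 3 doses of 100 mg/kg at 2-week intervals, and the tissue was collected about 8 weeks on. There were 5 libraries of each genotype. The sources used here give no strain, sex or age, nor whether the wild-type mice carried the Cre. Nothing in the labels ties each library to its own mouse. The p-values therefore reflect variation among the libraries, which may be technical.

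Chemokines are small proteins that draw leukocytes along a gradient by binding G protein-coupled receptors on them. Cxcl1 and Cxcl5 attract neutrophils through Cxcr2. Ccl20 attracts Ccr6-bearing dendritic cells and lymphocytes, and Ccl27a, the keratinocyte chemokine of skin, attracts T cells with Ccr10. Cxcl12 is a largely stromal ligand of Cxcr4 and of the scavenging receptor Ackr3, Cxcl14 is made constitutively by squamous epithelium, and Cxcl15 and Cxcl17 are best known from lung and other mucosae. Cxcl16 and Cx3cl1 are made as transmembrane proteins that hold cells with Cxcr6 or Cx3cr1, and the proteinases Adam10 and Adam17 shed them. Mst1 and Mst2 are the upstream kinases of the Hippo pathway, which restrains the coactivators YAP and TAZ.

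RefSeq promoter windows on GRCm38.p6, 250 bases before to 50 bases after a transcription start, matched 7 of the 10 genes and gave 9 windows. No window was available for Cxcl16, Cxcl5 or Cxcl17. Windows of 4 genes are shown because they stand for the levels described below, namely 2 inducible ligands near the detection floor, 1 transmembrane ligand with a measurable level and the keratinocyte chemokine. Capitals mark matches on either strand to TATAAA (the TATA box), GGGA and TTTCC with any base between them (an NF-kB site), TGANTCA (AP-1) or GGAATG (the TEAD partners of YAP and TAZ). The windows lie at chr5:90890995-90891294 (+ strand) for Cxcl1, chr1:83116516-83116815 (+ strand) for Ccl20, chr8:94771930-94772229 (+ strand) for Cx3cl1 and chr4:41770163-41770462 (- strand) for Ccl27a.
Cxcl1: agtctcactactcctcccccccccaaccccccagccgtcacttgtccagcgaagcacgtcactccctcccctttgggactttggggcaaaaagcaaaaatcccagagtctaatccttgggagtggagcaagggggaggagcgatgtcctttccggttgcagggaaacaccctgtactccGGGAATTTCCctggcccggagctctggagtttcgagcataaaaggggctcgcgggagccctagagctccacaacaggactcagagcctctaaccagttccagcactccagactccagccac
Ccl20: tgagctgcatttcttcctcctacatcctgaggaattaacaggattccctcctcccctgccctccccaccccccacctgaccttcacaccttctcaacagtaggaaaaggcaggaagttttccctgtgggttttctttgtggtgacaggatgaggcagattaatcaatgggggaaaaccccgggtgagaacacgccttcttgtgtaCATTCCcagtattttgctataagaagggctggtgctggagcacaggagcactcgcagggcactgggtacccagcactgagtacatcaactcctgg
Cx3cl1: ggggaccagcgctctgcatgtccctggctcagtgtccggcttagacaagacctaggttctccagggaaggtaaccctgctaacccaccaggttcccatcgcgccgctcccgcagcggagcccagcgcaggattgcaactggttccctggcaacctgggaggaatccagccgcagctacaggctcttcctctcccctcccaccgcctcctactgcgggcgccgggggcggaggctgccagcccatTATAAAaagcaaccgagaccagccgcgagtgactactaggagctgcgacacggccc
Ccl27a: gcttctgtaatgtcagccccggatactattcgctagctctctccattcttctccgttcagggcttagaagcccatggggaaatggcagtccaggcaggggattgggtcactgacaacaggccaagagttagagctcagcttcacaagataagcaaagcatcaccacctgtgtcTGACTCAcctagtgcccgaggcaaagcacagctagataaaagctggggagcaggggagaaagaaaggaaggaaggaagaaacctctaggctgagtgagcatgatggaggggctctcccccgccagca
The Cxcl1 window held 1 NF-kB match, found in 0.411% of all 32851 windows. The Ccl20 window held 1 TEAD match, found in 14.7% of windows. Cx3cl1 had 1 TATA box match, found in 13.6% of windows, and this Ccl27a window had 1 AP-1 match, found in 7.81%. None of the 4 motifs was matched in the other Ccl27a windows or in those of Cxcl12 and Cxcl14, and the Cxcl15 window held 1 TATA box match. No matched letters overlapped, and a match is a description of the letters only.

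Values are FPKM as the authors deposited them, that is, fragment numbers corrected for gene length and library size, so levels can be compared between genes. Libraries held an estimated 13070000 to 16440000 fragments. The tissue label was checked against its markers. Krt13, the main suprabasal keratin of esophagus, lay at 33902 to 38777 FPKM in knockout and 34632 to 38781 FPKM in wild type. Of 10 epithelial markers, all tested, 2 fell, Trp63, the gene of p63, by 0.76 and Perp, a desmosome protein and p63 target, by 0.57 on the log2 scale (limma adjusted p = 0.00293 and 0.0154), and 0 rose. Among all tested genes 4.96% fell and 7.9% rose. Both calls end with the marker score described below as covariate (limma adjusted p = 0.358 for Trp63 and 0.288 for Perp). All 12 T and NK cell markers, all 4 B cell markers, all 8 endothelial markers and all 10 muscle markers stayed under 1 FPKM in every library. Stk3, the gene of Mst2, had 0.05 to 0.25 FPKM in knockout and 2.08 to 3.48 FPKM in wild type, and Stk4, the gene of Mst1, had 12.2 to 17.4 FPKM in knockout and 17.0 to 22.7 FPKM in wild type. A value over the whole of Stk4 does not show the deletion of single exons, so it is no check of the Mst1 deletion. In bulk tissue, fewer cells of a type and less RNA per cell cannot be told apart.

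Transcripts of the 10 genes were scarce in this epithelium, and Cxcl16 was the member that rose in knockout. Summed over the 10 genes, the level was 3.22 to 7.03 FPKM in knockout and 2.50 to 5.00 FPKM in wild type. Of the 10 genes, 7 were under 1 FPKM in all 10 libraries, and 1 of these, Cxcl15, was at 0 throughout. Only Cxcl16 and Cx3cl1 reached at least 1 FPKM in at least 5 libraries, the filter for testing (8 libraries for Cxcl16 and 5 for Cx3cl1), and so 2 of 10 members entered the test with 11386 genes. Of these 1, Cxcl16, was higher and 0 were lower (limma on log2(FPKM + 1), Benjamini-Hochberg adjusted p under 0.05). Among all tested genes 7.9% were higher and 4.96% lower, or 12.9% in either direction, so that 61.4% of calls were higher, or 46.6% after median ratio scaling and 47.9% after quantile normalization. Of the 2 tested members, 1, again Cxcl16, had an unadjusted p under 0.05, as had 3387 of the 11386 tested genes. Neither had groups free of overlap; among all tested genes 6.62% lay wholly above and 3.88% wholly below wild type.

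**Figure D1:**
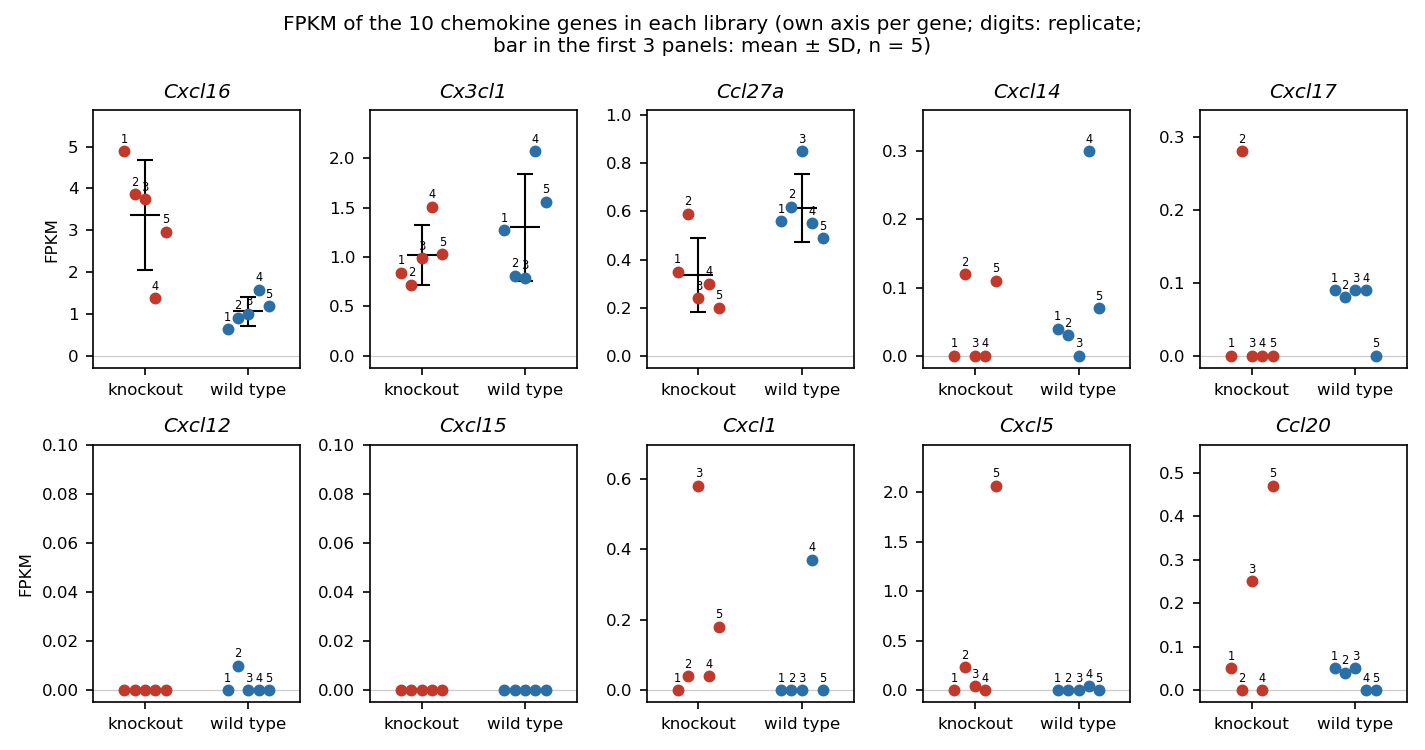
FPKM (y axis, a separate scale for each gene) of the 10 chemokine genes in 5 knockout and 5 wild-type libraries, with 1 point per library, its replicate number above it, and the mean with its SD in the panels of Cxcl16, Cx3cl1 and Ccl27a. Cxcl16 lay at 1.37 to 4.89 FPKM in knockout and 0.64 to 1.58 FPKM in wild type, while Cxcl12 and Cxcl15 stayed at or next to 0.

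Cxcl16 (ENSMUSG00000018920, chromosome 11), the transmembrane ligand of Cxcr6 that also takes up oxidized lipoprotein, had 4.89, 3.86, 3.75, 1.37 and 2.97 FPKM in knockout libraries 1 to 5 and 0.64, 0.91, 1.01, 1.58 and 1.19 FPKM in wild-type libraries 1 to 5. Knockout 1, 2, 3 and 5 were above every wild-type library, and knockout 4 lay inside the wild-type range, below wild type 4. The mean was 3.37 ± 1.31 FPKM in knockout and 1.07 ± 0.349 FPKM in wild type (SD, n = 5 and 5), a ratio of means of 3.16. The log2 fold change was 1.03 (SE 0.22, 95% interval 0.56 to 1.51; limma adjusted p = 0.00996). An estimated 57 to 193 fragments per library lay behind the knockout values and 29 to 69 behind the wild-type values. Leaving out single libraries gave log2 fold changes of 0.91 to 1.24, all past the threshold; without knockout 4 the adjusted p was 0.00063.

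Within the tested genes Cxcl16 was still a low transcript. It ranked 9506th of 11386 by mean log2 value, and 207 tested genes had a larger log2 fold change. Of its exon length in GENCODE M21, 18.3% overlaps Zmynd15 on the opposite strand, and the sources used here do not say whether strand was used in counting. Zmynd15, a zinc finger gene, had 0.08 to 0.25 FPKM in knockout and 0.04 to 0.22 FPKM in wild type, below Cxcl16 in every library. The difference in Cxcl16 was also seen beside a lower score of fibroblast, endothelial and muscle markers, which averaged 28 genes as log2(FPKM + 1) and lay at 0.102 to 0.174 in knockout and 0.197 to 0.273 in wild type. With that score as covariate the log2 fold change was 0.78 and no longer past the threshold (SE 0.47; limma adjusted p = 0.506). Of its genes Dcn, a proteoglycan of connective tissue, had 0.06 to 1.12 FPKM in knockout and 4.42 to 13.55 FPKM in wild type. Dcn fell by 2.83 on the log2 scale (limma adjusted p = 8.62e-05). No other gene of the score passed the threshold, with the filter or without it. All but Dcn and Fbln1 stayed under 1 FPKM in every library, so a fall shared by these markers could hardly have been detected. Among the 10 fibroblast markers 4 were at 0 and 8 were under 1 FPKM in all libraries. The summed level was 2.21 to 5.43 FPKM in knockout and 8.51 to 18.2 FPKM in wild type, a difference that follows Dcn. Fbln1, the other tested fibroblast marker, had 3.98 ± 1.19 FPKM in knockout and 4.11 ± 1.57 FPKM in wild type (SD, n = 5 and 5). Its log2 fold change was -0.01 (limma adjusted p = 0.978). With the score computed without Dcn, an alternative chosen after seeing the data, Cxcl16 stayed past the threshold, at 1.04 (limma adjusted p = 0.0141). That score rests on Fbln1 and on genes under 1 FPKM. The part of connective tissue in the Cxcl16 difference was not tested.

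**Figure D2:**
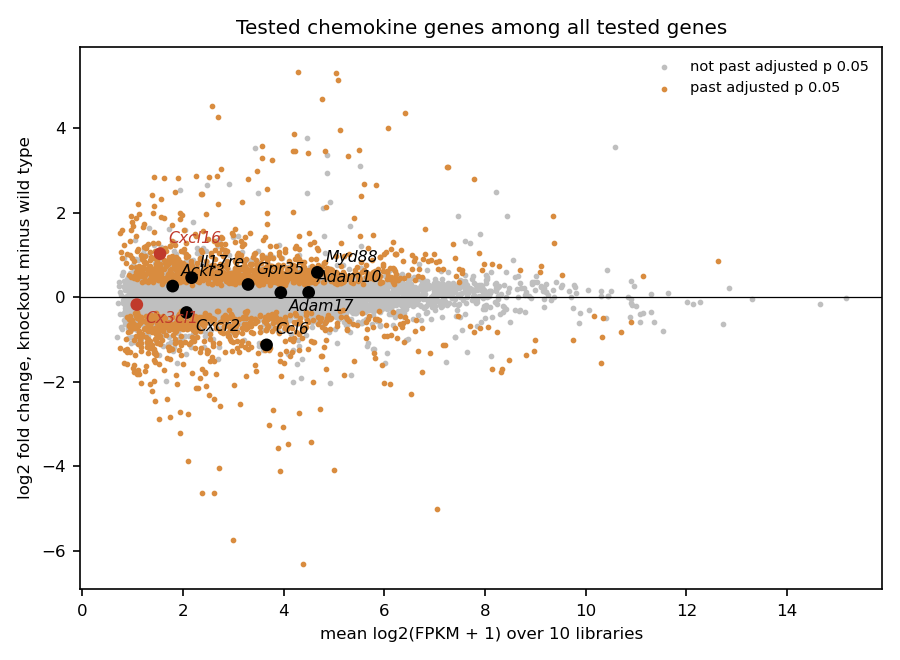
Log2 fold change (knockout minus wild type, y axis) against mean log2(FPKM + 1) over 10 libraries (x axis) for 11386 tested genes, orange where the adjusted p is under 0.05. The tested members are in red, and the 3 tested receptors, both sheddases, Ccl6, Myd88 and Il17re in black; Cxcl16 lies at 1.03 and Cx3cl1 at -0.17, both toward the low end of expression.

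Cx3cl1 (ENSMUSG00000031778, chromosome 8), fractalkine, is the other transmembrane chemokine and did not pass the test. It had 0.84, 0.72, 0.99, 1.51 and 1.03 FPKM in knockout libraries 1 to 5 and 1.27, 0.81, 0.79, 2.07 and 1.56 FPKM in wild-type libraries 1 to 5. The groups overlapped, but wild type 4 and 5 were above every knockout library and knockout 2 was below every wild-type library. The means were 1.02 ± 0.301 FPKM in knockout and 1.30 ± 0.539 FPKM in wild type (SD, n = 5 and 5). The log2 fold change was -0.17 (SE 0.17; limma adjusted p = 0.534), with a 95% interval of -0.53 to 0.19, which holds changes in either direction. Its values rested on an estimated 40 to 82 fragments in knockout and 45 to 118 in wild type.

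The order of the 2 ligands differed between libraries. In knockout Cxcl16 was the highest of the 10 members in 4 of 5 libraries, and in knockout 4 Cx3cl1 was above it. In wild type Cx3cl1 was highest in libraries 1, 4 and 5 and Cxcl16 in libraries 2 and 3. The ratio of Cxcl16 to Cx3cl1 within a library, which no scaling of the library alters, was 0.907 to 5.82 with a median of 3.79 in knockout and 0.504 to 1.28 with a median of 0.763 in wild type. Cxcl16 made up 42.2% to 79.8% of the summed level of the 10 genes in knockout and 24.2% to 36.4% in wild type. Adam10, which sheds both ligands at rest, had 22.6 ± 1.97 FPKM in knockout and 20.7 ± 1.08 FPKM in wild type, and Adam17, the inducible sheddase, had 15.1 ± 1.59 FPKM in knockout and 13.8 ± 1.14 FPKM in wild type (SD, n = 5 and 5). Neither of these 2 genes passed the test, and neither had an unadjusted p under 0.05 (limma adjusted p = 0.405 for Adam10 and 0.475 for Adam17).

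**Figure D3:**
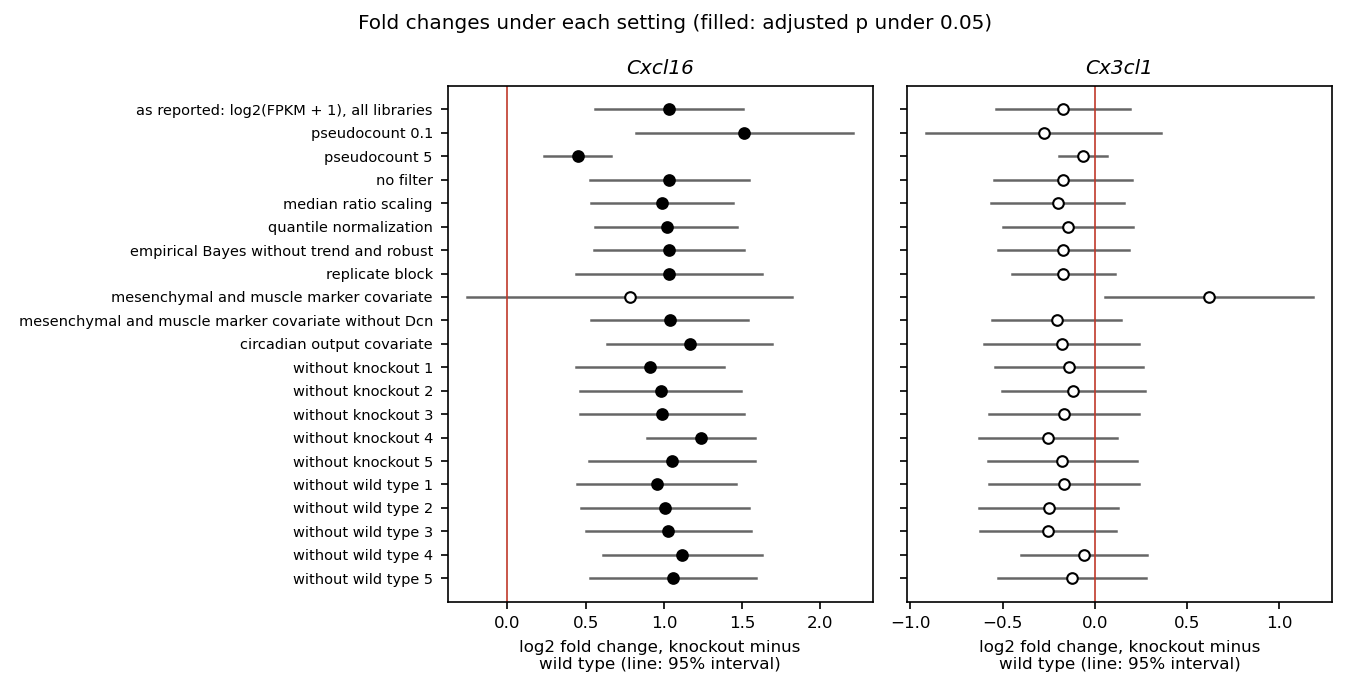
Log2 fold changes (knockout minus wild type, x axis) of Cxcl16 and Cx3cl1 under each processing choice (y axis), with lines for 95% intervals and filled points where the adjusted p is under 0.05. Cxcl16 stays between 0.45 and 1.52 and loses its call with the mesenchymal and muscle marker covariate, under which Cx3cl1 turns to 0.62.

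Ccl27a (ENSMUSG00000073888, chromosome 4), the T-cell attractant of skin keratinocytes, was low and below the filter in both genotypes. It had 0.35, 0.59, 0.24, 0.30 and 0.20 FPKM in knockout libraries 1 to 5 and 0.56, 0.62, 0.85, 0.55 and 0.49 FPKM in wild-type libraries 1 to 5. Knockout 1, 3, 4 and 5 were below every wild-type library and knockout 2 lay inside the wild-type range. An estimated 7 to 20 fragments per library were behind the knockout values and 19 to 29 behind the wild-type values. Without a filter, which put 27599 genes into the fit, the log2 fold change was -0.28 and did not pass after adjustment (limma, unadjusted p = 0.0203, adjusted p = 0.173). In that fit 1.85% of all genes were higher and 1.69% lower, or 3.54% in either direction; of the 9 members it held, Cxcl16 was higher (limma adjusted p = 0.0359) and 0 were lower. Of the 31-base sequences of Ccl27a, a share of 0.570 also occurs in other genes, chiefly Ccl27b and the predicted genes Gm20878, Gm13306 and Gm21953. These copies are listed at 0 in all 10 libraries, and how shared reads were assigned is unknown, so the level of Ccl27a is uncertain. RefSeq lists 3 starts for the gene, 1 of which is the window printed above, and a value for the whole gene does not tell them apart.

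Cxcl14, Cxcl17, Cxcl12 and Cxcl15, chemokines that other epithelia or stroma make steadily, were at the floor of detection. An estimated 3 fragments correspond to 0.0999 to 0.126 FPKM for Cxcl14, 0.240 to 0.302 FPKM for Cxcl17, 0.0223 to 0.0281 FPKM for Cxcl12 and 0.0858 to 0.108 FPKM for Cxcl15, by library. These floors cover counting error only. Cxcl14 had 0, 0.12, 0, 0 and 0.11 FPKM in knockout libraries 1 to 5 and 0.04, 0.03, 0, 0.30 and 0.07 FPKM in wild-type libraries 1 to 5, or 6 fragments in all in knockout and 12 in wild type. Wild type 4 held 8 of those 12 fragments. Cxcl17 totalled 3 fragments in knockout, all in library 2, and 4 in wild type. Cxcl12 was listed at 0 in the 5 knockout libraries and at 0.01 FPKM in wild type 2 alone, 1 fragment over the series. Cxcl15 was listed at 0 in all 10 libraries. A difference between genotypes in these 4 genes was not detectable at this depth.

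The neutrophil attractants Cxcl1 and Cxcl5 and the Ccr6 ligand Ccl20 were at or near 0 in most libraries and stood out in single ones. Cxcl1 had 0, 0.04, 0.58, 0.04 and 0.18 FPKM in knockout libraries 1 to 5 and 0, 0, 0, 0.37 and 0 FPKM in wild-type libraries 1 to 5. It was seen in 4 knockout libraries and 1 wild-type library, and knockout 3 and wild type 4 were highest. Ccl20 had 0.05, 0, 0.25, 0 and 0.47 FPKM in knockout libraries 1 to 5 and 0.05, 0.04, 0.05, 0 and 0 FPKM in wild-type libraries 1 to 5. Knockout 3 and 5, with an estimated 5 and 10 fragments, were above every other library, where at most 1 fragment was found. Both genes overlapped between the genotypes, and neither passed without a filter (limma adjusted p = 0.667 for Cxcl1 and 0.468 for Ccl20).

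Cxcl5 was carried by 1 knockout library. It had 0, 0.23, 0.04, 0 and 2.07 FPKM in knockout libraries 1 to 5 and 0, 0, 0, 0.04 and 0 FPKM in wild-type libraries 1 to 5. Of 65 fragments in knockout, 58 came from library 5 and 6 from library 2, against 1 fragment in all wild-type libraries. The gene did not pass without a filter (limma adjusted p = 0.514). Ppbp, the platelet basic protein precursor and the next gene to Cxcl5 in a cluster on chromosome 5, was named after its values were seen. It had 0.14, 6.26, 0, 0 and 17.66 FPKM in knockout libraries 1 to 5 and 0, 0, 0, 0.06 and 0 FPKM in wild-type libraries 1 to 5, so it was highest in the same knockout libraries 5 and 2. Cxcl3, of the same cluster, reached 0.44 FPKM in knockout 5 and at most 0.02 FPKM elsewhere, and Pf4, the neighbouring platelet factor gene, 0.09 FPKM in knockout 5 and 0 elsewhere. Cxcl2 stayed at or below 0.07 FPKM in all 10 libraries.

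Markers of other cells were compared with these libraries. Of 12 neutrophil markers 10 were under 1 FPKM in all libraries, and Ly6g, a defining marker, was at 0 in all 10. Their sum was 1.94 to 40.4 FPKM in knockout and 1.82 to 8.46 FPKM in wild type. The markers above 1 FPKM were Cxcr2, given with the receptors below, and Ltf. Cxcr2 carried the wild-type maximum, with 8.04 FPKM in wild type 2, and Ltf the knockout maximum. Ltf, lactoferrin, which glandular epithelium also makes, had 0.58, 27.26, 0.59, 0.06 and 37.92 FPKM in knockout libraries 1 to 5 and 0.12, 0.37, 0, 5.34 and 0 FPKM in wild-type libraries 1 to 5. Knockout 2 and 5, the libraries with Cxcl5 and Ppbp, were highest in Ltf, and its part in these values was not tested. In the libraries with the highest Ccl20, knockout 3 and 5, Tnfaip3, the NF-kB feedback inhibitor A20, had 2.69 and 1.84 FPKM. Knockout 1, 2 and 4 had 0.44 to 0.78 FPKM of it and wild type 0.45 to 0.61 FPKM. Il17c, an epithelial cytokine, had 2.31 FPKM in knockout 3 and 0.46 FPKM in knockout 5, and at most 0.29 FPKM in every other library. Ltf, Tnfaip3 and Il17c were likewise named after their values were seen.

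The receptors of these ligands were mostly near 0. Of 23 chemokine receptor genes 20 were under 1 FPKM in all libraries and 3 were tested. None of the 3 passed, and 0 had an unadjusted p under 0.05 (limma). Cxcr6, the receptor of Cxcl16 on T cells, had 0.08 to 0.19 FPKM in knockout and 0 to 0.44 FPKM in wild type. Cx3cr1, the receptor of Cx3cl1 on macrophages, was at no more than 0.07 FPKM in knockout and 0.09 FPKM in wild type. Ccr10, for Ccl27a, had 0.08 to 0.45 FPKM in knockout and 0.20 to 0.85 FPKM in wild type. Ccr6, for Ccl20, was found in knockout 3 alone, at 0.03 FPKM, and Cxcr4, for Cxcl12, reached 0.13 FPKM in knockout and 0.04 FPKM in wild type. Markers of the cells that carry such receptors were not all as scarce. The 10 Langerhans and dendritic cell markers summed to 7.91 to 21.8 FPKM in knockout and 7.31 to 40.1 FPKM in wild type, of which Cd207, which marks Langerhans cells, had 0.60 to 1.62 FPKM in knockout and 0.46 to 3.04 FPKM in wild type. Cd74, the invariant chain of class II molecules, had 3.96 to 14.20 FPKM in knockout and 4.33 to 28.32 FPKM in wild type. H2-Ab1, a class II gene, had 3.05 to 6.08 FPKM in knockout and 2.31 to 7.80 FPKM in wild type. Of the 10 markers 7 were under 1 FPKM in all libraries, and Xcr1, Ccr6 and Ccr7 stand in the receptor list too. The 12 T and NK cell markers summed to 0.18 to 0.64 FPKM in knockout and 0.08 to 2.35 FPKM in wild type.

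The 3 tested receptors were those with levels above 1 FPKM. Gpr35, an orphan receptor once proposed for Cxcl17, was the highest, at 9.99 ± 1.34 FPKM in knockout and 7.97 ± 1.65 FPKM in wild type (SD, n = 5 and 5; log2 fold change 0.31, limma adjusted p = 0.172). Cxcr2, the receptor of Cxcl1 and Cxcl5, had 8.46, 3.55, 1.35, 1.35 and 2.00 FPKM in knockout libraries 1 to 5 and 1.41, 8.04, 6.56, 2.13 and 3.77 FPKM in wild-type libraries 1 to 5. The ranges coincide, and the neutrophil marker Ly6g was at 0 in the same libraries. Its log2 fold change was -0.36 (SE 0.46; limma adjusted p = 0.644). Ackr3, the scavenger of Cxcl12, had 0.57, 1.25, 4.18, 4.09 and 7.70 FPKM in knockout libraries 1 to 5 and 2.22, 4.55, 1.22, 1.92 and 1.76 FPKM in wild-type libraries 1 to 5, with the lowest and the highest value both in knockout. Its log2 fold change of 0.27 (limma adjusted p = 0.722) turned to -0.03 without knockout 5.

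Without a filter 2 receptor genes below 1 FPKM passed, Xcr1 as higher and Ccr9 as lower, both named after their values were seen. Xcr1, the receptor of cross-presenting dendritic cells, had 0.14 to 0.31 FPKM in knockout and 0 to 0.01 FPKM in wild type, with no overlap (limma adjusted p = 0.0105). Ccr9, the receptor of Ccl25, had 0 to 0.06 FPKM in knockout and 0.41 to 0.75 FPKM in wild type, also without overlap (limma adjusted p = 0.00103). In that fit 3.4% of genes lay wholly above and 2.57% wholly below wild type. Of the exon length of Ccr9, 21.5% overlaps other genes, among them the amino acid transporter gene Slc6a20a on the opposite strand. Slc6a20a had 0.02 to 0.21 FPKM in knockout and 1.66 to 5.31 FPKM in wild type, so it is lower in the same libraries, and without strand the reads of overlapping genes cannot be told apart.

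**Figure D4:**
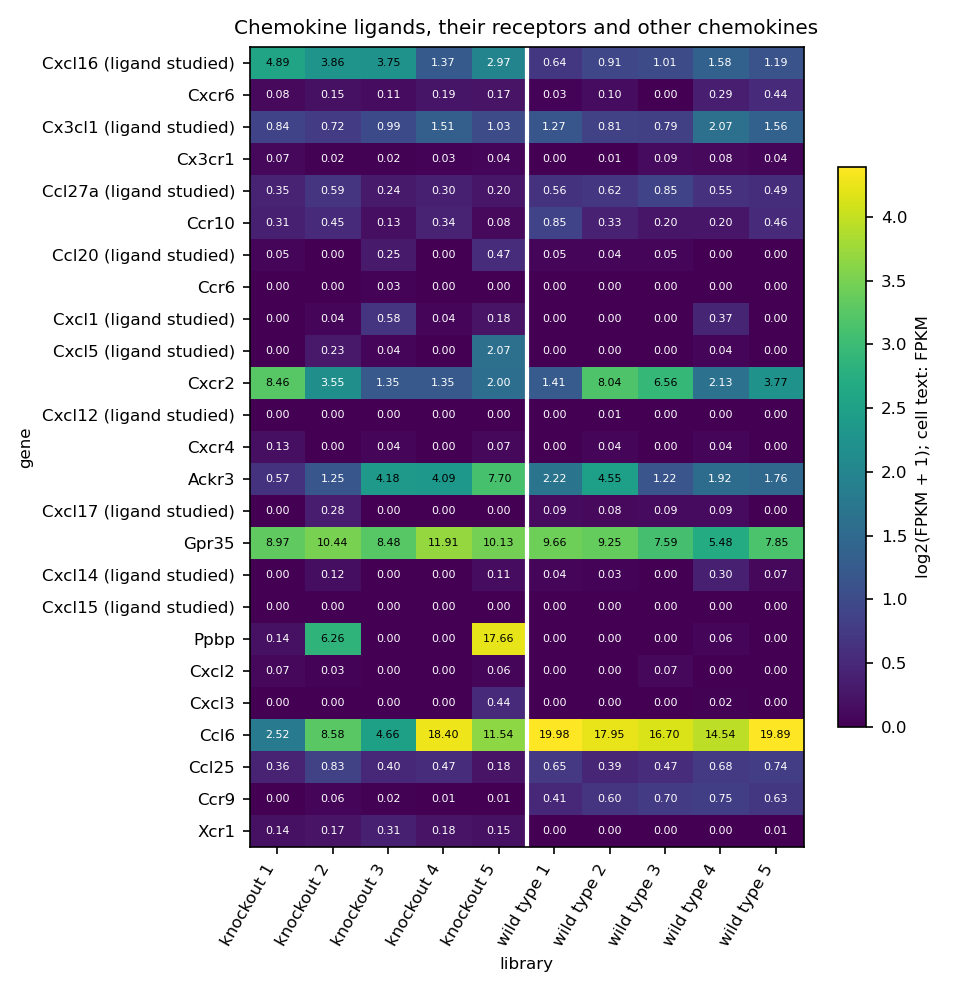
Heat map of log2(FPKM + 1) (colour; FPKM printed in each cell) for the 10 ligands, marked as studied, with receptors and further chemokines (rows), in 5 knockout and then 5 wild-type libraries (columns). Receptors of the scarce ligands are near 0 except Cxcr2, Ackr3 and Gpr35; Ppbp reaches 17.66 FPKM in knockout 5 and Ccl6 up to 19.98 FPKM in wild type.

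Outside the 10 members, Ccl6 had the highest mean level of the chemokines in this epithelium. Of 27 further chemokines 24 were under 1 FPKM in all libraries, 7 were at 0 throughout, and Ccl6 was the 1 tested. Ccl6, a mouse macrophage-attracting chemokine, had 2.52, 8.58, 4.66, 18.40 and 11.54 FPKM in knockout libraries 1 to 5 and 19.98, 17.95, 16.70, 14.54 and 19.89 FPKM in wild-type libraries 1 to 5. All knockout libraries but number 4 were below the wild-type range. The difference of -1.12 on the log2 scale did not pass (SE 0.39; limma adjusted p = 0.0797), but it was -1.42 and past the threshold without knockout 4 (limma adjusted p = 0.0177). Knockout 4 was thus the knockout library nearest to wild type in both Cxcl16 and Ccl6, and it was also the highest of them in Dcn, at 1.12 FPKM. The marker score, which includes Dcn, was 0.174 in knockout 4 and 0.102 to 0.142 in the other knockout libraries. Fbln1 had 4.21 FPKM in knockout 4 and 4.17, 2.07, 5.36 and 4.10 FPKM in knockout 1, 2, 3 and 5. Col1a1, Col1a2 and Col3a1 had at most 0.02 FPKM in any library, too little to compare libraries. The part of connective tissue in the Cxcl16 and Ccl6 values of knockout 4 was not tested.

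Signals that induce epithelial chemokines were followed as a list of 24 genes of the IL-17, IL-1, TNF and NF-kB pathways. Of these 17 were tested, 2 were higher, 0 were lower and 15 did not pass, against 7.9% higher and 4.96% lower among all tested genes. The median log2 fold change was 0.27 in the list and 0.06 over all tested genes, and 7 of the 17 had an unadjusted p under 0.05, against 3387 of all 11386 tested genes (limma). Myd88, the adaptor of Toll-like and IL-1 receptors, had 28.71 to 31.71 FPKM in knockout and 17.73 to 22.20 FPKM in wild type, with no overlap. Its log2 fold change was 0.59 (SE 0.09; limma adjusted p = 0.00153), and with the mesenchymal and muscle marker score as covariate 0.55 and not past the threshold (limma adjusted p = 0.306). Il17re, the epithelial receptor of IL-17C, had 4.35 ± 0.717 FPKM in knockout and 2.88 ± 0.612 FPKM in wild type (SD, n = 5 and 5; log2 fold change 0.47, limma adjusted p = 0.0414). The Il17re call ended when any one of knockout 1 to 4 or wild type 2 to 5 was left out (limma adjusted p = 0.053 to 0.0988), without a filter (0.096) and with the marker score (0.586). Nfkbia, the NF-kB inhibitor induced by the pathway itself, had 83.1 ± 19.3 FPKM in knockout and 54.6 ± 11.8 FPKM in wild type, and did not pass (limma adjusted p = 0.06). Tnfrsf1a, the TNF receptor, had 45.02 to 79.67 FPKM in knockout and 37.08 to 59.60 FPKM in wild type and did not pass (limma adjusted p = 0.308). Values of macrophage markers are given beside these, as macrophages also express chemokines. Cd68, the 1 tested of 10 markers, had 11.4 ± 3.72 FPKM in knockout and 6.63 ± 2.82 FPKM in wild type and did not pass (limma adjusted p = 0.0787). The 10 markers summed to 10.4 to 18.2 FPKM in knockout and 6.66 to 13.4 FPKM in wild type, and most of that sum was Cd68. Of the 10, 6 were under 1 FPKM in all libraries, and 0 passed without a filter. Every marker of the list but Csf1r had a higher mean in knockout than in wild type, with overlapping groups. Csf1r had means of 0.548 FPKM in knockout and 0.686 FPKM in wild type. At such low levels a failed call does not show that a marker is unchanged. The part of macrophages in the differences of Cxcl16 and Myd88 was not tested.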

How the data were processed

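RNA was sequenced from esophageal epithelium of 5 knockout and 5 wild-type libraries; the epithelium had been freed of muscle and, by Dispase, of mesenchyme, and was read as pairs of 150 bp, per the labels' protocols. The authors deposited FPKM values with 2 decimals. The tools were HISAT2 2.0.1, cutadapt and HTSeq 0.6.1 and the build mm9, per the submitters' processing notes; settings, annotation and use of strand: not given in the sources used here.

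Genes reaching 1 FPKM or more in 5 or more libraries entered the test as log2(FPKM + 1) with limma 3.58.1 (R 4.3.3; genotype as term, trend and robust empirical Bayes, Benjamini-Hochberg over all tested genes). On simulated data the procedure recovered 40.3% of log2 changes of 0.5 and 94.0% of log2 changes of 1, and 6.63% of its calls were false. Many changes of 0.5 or less would thus be missed. On the log2(FPKM + 1) scale the fold change of a weakly expressed gene is understated. No count model was fitted. Fragments were estimated with GENCODE M21 exon lengths (GRCm38, not the mm9 of those notes): library totals were sought at which genes with 1 exon (1200 bp or less) have whole numbers of fragments, within 0.01 fragments beyond rounding. This held for 93.9% to 98.1% of values, against 9.5% to 11.3% by chance. Rounding to 2 decimals spans much of a fragment for long genes, so member fragments are estimates. Shared sequence was counted over 31-base stretches. Members and lists were chosen with earlier results of these data known. The rule for naming genes took all members, list genes past the threshold and the 2 list members of highest mean level. Lists of cell types are mostly given as counts and sums, so not every gene under this rule is named. Further genes, among them Cd207, Csf1r, Ly6g, Cxcl2, Cxcl3, Pf4 and the collagens, were named outside this rule with their values known. The receptors of the members were named in addition, by ligand, and genes chosen after their values were seen are marked so. Chromosomes and overlaps come from GENCODE M21, promoters from RefSeq. Figures were drawn with matplotlib 3.10.9.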

Additional observations from a re-analysis of the deposited data

Results flagged for a closer look

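In 21 genes, 39 groups of 5 libraries with any spread were checked for a library far from the others, and 8 values were found. The rule is set to flag about 1 in 20 groups by chance, for values without ties at 0. Where 4 of 5 libraries are at 0, the other library is always flagged. This holds for Cxcl1, Cxcl5 and Cxcl12 in wild type and Cxcl17 in knockout, so the number of flags cannot be set against that rate. In knockout the highest values of Cxcl5 (2.07 FPKM, library 5), Cxcl17 (0.28 FPKM, library 2) and Dcn (1.12 FPKM, library 4) stood apart. In wild type the highest values of Cxcl1 (0.37 FPKM, library 4), Cxcl5 (0.04 FPKM, library 4), Cxcl12 (0.01 FPKM, library 2) and Cxcl14 (0.30 FPKM, library 4) did, as did the lowest value of Cxcl17 (0 FPKM, library 5). Those of Cxcl12, of Cxcl5 in wild type and of Cxcl17 in wild type differ from the nearest library by 1 fragment. Wild type 4 holds 3 of the 4 high wild-type values, and also the highest wild-type Ltf, at 5.34 FPKM.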

How the results depend on the processing

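Cxcl16 kept its direction in 20 alternatives and its call in 19, with log2 fold changes of 0.45 to 1.52 and adjusted p of 0.00063 to 0.506. The call ended with the covariate of mesenchymal and muscle markers, under which the members higher in knockout numbered 0; members lower numbered 0 throughout. With that covariate Cx3cl1 turned to 0.62 (adjusted p = 0.356), and 40 genes in all were higher and 38 lower, against 900 and 565. The score separates the genotypes, so it takes up part of the difference by construction; without Dcn, an alternative added after seeing the data, 1054 were higher and 625 lower. Ackr3 turned to -0.14 with the circadian covariate and to -0.03 without knockout 5, with -0.03 to 0.59 over single libraries left out. Without a filter 511 genes were higher, and with a filter at 5 FPKM, which leaves no member to test, 329 were lower. Leaving out single libraries gave 436 to 1091 genes higher and 357 to 679 lower, with the lowest counts without wild type 5 and counts over 1.5 times below the full set also without knockout 1, 3 or 5 or wild type 1, and members higher stayed at 1. The labels do not say that the replicate number pairs the libraries. Same-numbered deviations correlated at -0.24 to 0.42, which cannot decide it, as libraries of different number were not compared. With the replicate number as a block, 773 genes were higher and 551 lower, and Cxcl16 was at 1.03 (adjusted p = 0.0411). Low counts limit all members other than Cxcl16 and Cx3cl1.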

Other observations

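Genes of like pattern were sought over the 10 libraries, with each gene's log2(FPKM + 1) centred and divided by its SD; predicted genes and pseudogenes were left out. Nearest to Cxcl16 were Mtdh, a transmembrane protein gene, with a mean absolute difference of 0.170 SD, Fbl, the nucleolar methyltransferase fibrillarin, with 0.181 SD, and the Ly6 family gene Ly6e with 0.189 SD. Their levels were 11.1, 10.5 and 51.6 FPKM in knockout and 9.05, 6.996 and 33.8 FPKM in wild type. Nearest to Cx3cl1 were Hdac7, a histone deacetylase gene, with 0.260 SD, Zfp523 with 0.273 SD and Trp53i13 with 0.275 SD, and none of these was as close to it as the 3 genes named for Cxcl16 were to that gene.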
